A study of Danio rerio with 10 samples.

Results

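The segmentation clock and boundary genes were followed through the cells of zebrafish embryos that had just begun to form somites. The 10 genes were taken by their symbols, and the choice was made with earlier results of these data known. They were the clock repressors her1 (ENSDARG00000014722) and her7 (ENSDARG00000017917), and the Notch ligands dlc (ENSDARG00000002336) and dld (ENSDARG00000020219). The transcription factors of the presomitic mesoderm were msgn1 (ENSDARG00000070546) and tbx6 (ENSDARG00000011785). The boundary genes were mespaa (ENSDARG00000017078), mespba (ENSDARG00000030347), ripply1 (ENSDARG00000054103) and ripply2 (ENSDARG00000070535). Each symbol named 1 gene, and all 10 were among the 19998 genes kept for analysis.

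Somites are blocks of mesoderm that bud off in pairs from the front of the presomitic mesoderm while the tail bud adds cells behind. In the presomitic mesoderm, her1 and her7 repress their own transcription and so oscillate, and the Notch ligands Dlc and Dld keep neighbouring cells in step. The bHLH factor Msgn1 drives the maturation of tail bud progenitors into presomitic mesoderm. At the front, the T-box factor Tbx6, mutated in the fused somites line, turns on the mesp genes, which set the front of each somite. Ripply1 and Ripply2 then bring Tbx6 activity to an end where the boundary forms.

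Single-cell RNA sequencing gave 1 library for each of 10 whole Tubingen embryos. There were 3 dact1/2 mutants (dact1-/-;dact2-/-), which lack the Dact scaffold proteins that bind Dishevelled, 3 gpc4 mutants (gpc4-/-), which lack a glypican co-receptor of Wnt, and 4 wildtype (WT) embryos. The labels give the 3 somite stage and the methods a stage 1 somite later. Mutants were picked by their truncated body axis and were not genotyped, and nothing in the labels says whether embryos of a group came from separate clutches, so each p-value measures only the spread between these embryos.

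After filtering, 16449 of 21980 droplets remained, with 11407905 to 18839132 UMIs (unique molecular identifiers, each standing for 1 captured RNA) per dact1/2 mutant, 10168109 to 13983080 per gpc4 mutant and 11112409 to 14771407 per wildtype embryo. RNA of the targeted genes was counted as a check of the labels. The level of dact1 was 2.60 to 2.98 CPM (UMIs of a gene scaled to a common total of UMIs in the cells counted) in dact1/2 mutants and 5.72 to 7.99 CPM in the other embryos, and that of gpc4 was 13.5 to 17.7 CPM in gpc4 mutants and 49.4 to 78.8 CPM in the other embryos. dact2, in which the mutation is a small deletion that need not lower its RNA, was at 43.9 to 53.3 CPM in dact1/2 mutants and 42.7 to 87.9 CPM in wildtype. Across the 45 pairs of libraries, 29 cell barcodes were shared, at most 3 in a pair.

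Cells were clustered without the 10 genes, so that the genes could be measured in clusters they had not shaped. Presomitic mesoderm-like cells (895 cells, led by alpi.1, mgst1.2, myf5 and tbx16) and somite-like cells (958 cells, led by vwde and comp, with dmrt2a, tcf15 and meox1 close behind) were named from their markers. A cluster of 1914 cells led by cdx1a, tbx16 and hes6 held markers of both presomitic mesoderm and tail bud and is called the posterior cluster. Adaxial-like cells, the slow muscle precursors beside the notochord, numbered 328.

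Wildtype replicate 1 stood apart from the other embryos in the tissue where the 10 genes are active. Somite-like cells made up 11.1% of its posterior, presomitic and somite-like cells (39 cells), against 26.5% to 32.6% in wildtype replicates 2, 3 and 4. Its posterior cluster and presomitic mesoderm-like cells took 27.9% of the embryo, against 14.6% to 16.3% in those 3 embryos. The summed level of 18 stress and dissociation genes was 7233 CPM in its posterior cluster and 2595 to 3777 CPM in the other 9 embryos. Each comparison of levels below was run with wildtype replicates 2, 3 and 4, a choice made with earlier results of these data known, and again with all 4.

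A background level was taken from epidermis-like cells, which lie outside the mesoderm. Free RNA, doublets (which were not removed) and misplaced cells cannot be told apart in it. Whether dlc and dld are expressed in some epidermis-like cells was not tested, and no background is given for them. In wildtype, msgn1 stood at 137 ± 113 CPM there (SD, n = 4), her7 at 9.13 ± 5.30 CPM, tbx6 at 4.88 ± 3.03 CPM and her1 at 2.10 ± 1.31 CPM. The msgn1 background was uneven, with 595 UMIs in wildtype replicate 4, where 22.4% of 134 cells had one, and 69 UMIs in replicate 2, where 5.77% of 104 cells had one (unthinned). Levels of her1 in epidermis-like cells were 5.01, 3.86 and 7.94 CPM in dact1/2 mutants, 9.65, 4.17 and 6.02 CPM in gpc4 mutants and 1.13, 0.883, 2.82 and 3.58 CPM in wildtype, so that every mutant was above every wildtype embryo. The same held for ripply1, at 21.3 to 46.6 CPM in dact1/2 mutants, 22.5 to 26.4 CPM in gpc4 mutants and 2.65 to 16.1 CPM in wildtype, and for ripply2, at 2.09 to 15.9 CPM in dact1/2 mutants, 2.19 to 9.14 CPM in gpc4 mutants and 0 to 1.70 CPM in wildtype. How many of all genes lay apart in this way in epidermis-like cells was not counted, so no trait of these genes is read from it. The part of this background in the differences below was not tested.

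Among the 18 clusters of wildtype embryos, the mean levels of the clock genes were highest in presomitic mesoderm-like cells and the posterior cluster, and those of the boundary genes in somite-like or adaxial-like cells. The levels of her7 were 228 ± 80.1 CPM in presomitic mesoderm-like cells and 214 ± 43.4 CPM in the posterior cluster (SD, n = 4 embryos), which do not differ beyond their spread. Next came somite-like cells at 33.6 ± 49.0 CPM, a mean that rests on wildtype replicate 1: the other 3 embryos averaged 9.19 ± 4.55 CPM, close to the epidermal level. her1 had the same order, with 108 ± 34.4 CPM in presomitic mesoderm-like cells, 74.3 ± 27.2 CPM in the posterior cluster and 24.5 ± 27.7 CPM in somite-like cells, and its first pair of levels also overlapped. Over all 10 embryos the posterior cluster held 43.6% of the her1 UMIs and 50.9% of the her7 UMIs, and presomitic mesoderm-like cells 27.8% and 24.4%.

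**Figure D1:**
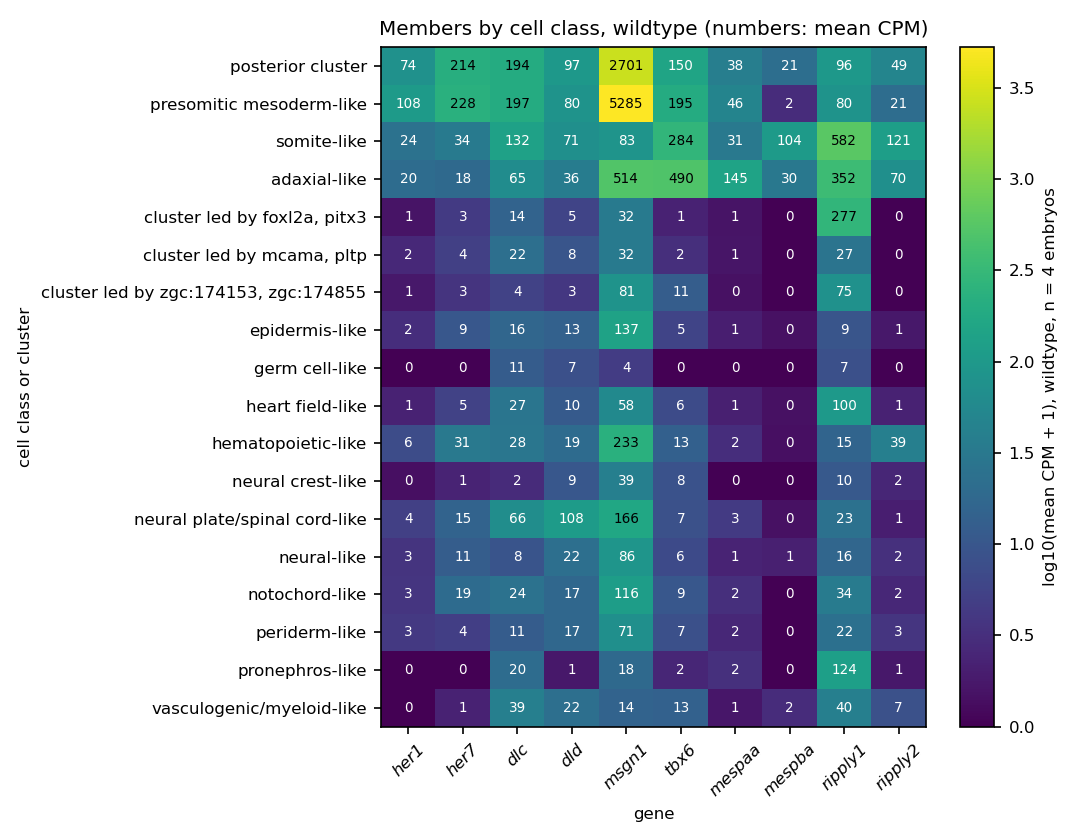
Mean level of the 10 genes (columns) in each cell class or cluster (rows) over the 4 wildtype embryos, with the mean CPM printed in each cell and the colour on a log10(mean CPM + 1) scale. The clock genes and msgn1 are highest in the posterior cluster and presomitic mesoderm-like cells, and ripply1, ripply2 and mespba are highest in somite-like cells. The somite-like means of ripply2 and mespba rest on wildtype replicate 1.

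msgn1 was high in the presomitic mesoderm and low in front of it. It stood at 5285 ± 653 CPM in presomitic mesoderm-like cells, at 2701 ± 683 CPM in the posterior cluster and at 82.7 ± 48.4 CPM in somite-like cells of wildtype embryos. The first pair of levels did not overlap between embryos, and the somite-like level was at or under that of the epidermis. After thinning every cell to 1500 UMIs, 96.8% of wildtype presomitic mesoderm-like cells had an msgn1 UMI (99.5% unthinned, median depth 8181 UMIs), against 5.78% of epidermis-like cells (18.4% unthinned, median depth 7721 UMIs).

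tbx6 was found in the presomitic mesoderm and in the tissue in front of it. Its wildtype levels were 489.6 ± 579 CPM in adaxial-like, 284 ± 328 CPM in somite-like, 195 ± 24.8 CPM in presomitic mesoderm-like and 86.4 to 196 CPM over the embryos in posterior cluster cells, and no neighbours in this order differed beyond their spread. The upper 2 means rest on wildtype replicate 1, at 1332 CPM in its adaxial-like and 775 CPM in its somite-like cells. The other 3 embryos averaged 209 ± 171 CPM in adaxial-like and 120.3 ± 9.16 CPM in somite-like cells. In those 3 embryos the somite-like levels (110.0 to 127 CPM) all lay below the presomitic mesoderm-like levels (159 to 216 CPM). The order of somite-like and presomitic mesoderm-like cells thus turned round without replicate 1.

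dlc, the first of the Notch ligands, stood at 197 ± 38.1 CPM in presomitic mesoderm-like, 194 ± 35.5 CPM in posterior and 132 ± 65.4 CPM in somite-like cells of wildtype embryos, within their spread of each other. dld was as high in neural plate/spinal cord-like cells (108 ± 35.2 CPM), where Delta ligands act in neurogenesis, as in the posterior cluster (96.9 ± 11.9 CPM). Over all 10 embryos, the posterior cluster held 30.8% of the dld UMIs, neural-like cells 14.5% and neural plate/spinal cord-like cells 9.3%.

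Of the boundary genes, ripply1 reached 582 ± 371 CPM in wildtype somite-like cells (399 ± 84.6 CPM without replicate 1), 352 ± 259 CPM in adaxial-like cells and 277 ± 168 CPM in a cluster of 666 cells led by foxl2a and pitx3. In that cluster no other gene of the 10 had a mean above 31.9 CPM. ripply1 also stood at 99.9 ± 25.3 CPM in heart field-like cells, where tbx6 had 6.13 CPM. ripply2 and mespba were led by somite-like cells, at 121 ± 152 CPM and 104 ± 157 CPM, but wildtype replicate 1 set both means, and the other 3 embryos averaged 46.0 ± 27.2 CPM and 25.7 ± 15.12 CPM. Posterior cluster levels in those 3 embryos were 88.8, 77.5 and 5.96 CPM of ripply2 and 30.1, 44.7 and 0.745 CPM of mespba. Without replicate 1, somite-like cells thus stood apart from the posterior cluster for neither gene. Over all 10 embryos, somite-like cells held 33.7% of the ripply2 and 54.3% of the mespba UMIs, and the posterior cluster 33.6% and 23.9%. mespaa was highest in adaxial-like cells (145 ± 147 CPM), where its embryos ran between 10.5 and 327 CPM, but over all 10 embryos the posterior cluster held 26.7% of its UMIs.

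To place the genes along the axis, 3767 posterior, presomitic mesoderm-like and somite-like cells were ranked within each embryo by a score. The score was the mean of 7 somite genes such as meox1 and tcf15 minus the mean of 7 tail bud and presomitic genes such as tbx16 and fgf8a, none of them among the 10 genes. Ranks were cut into 10 equal bins, with bin 1 the most posterior, and each gene's centre was the mean bin weighted by its CPM. Wildtype centres ran her7 4.38 ± 0.96, msgn1 4.52 ± 0.79, dld 5.35 ± 0.63, her1 5.71 ± 0.76, dlc 5.77 ± 0.44, mespaa 7.68 ± 0.63, tbx6 8.05 ± 0.67, ripply1 8.87 ± 0.31, ripply2 8.95 ± 0.56 and mespba 9.52 ± 0.39 (SD, n = 4). Neighbours in this order lay within their spread of each other, except dlc and mespaa, between which the order had its widest gap.

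The shapes behind the centres differed from gene to gene. In wildtype, msgn1 stood at 1273 CPM in bin 1, 4335 CPM in bin 5 and 52.5 CPM in bin 10. tbx6 ran the other way, with 8.11 CPM in bin 1, 191 CPM in bin 6 and 494 CPM in bin 10. ripply1 stood at 1.25 CPM in bin 1 and 953 CPM in bin 10, and mespba stayed under 2 CPM up to bin 7 and reached 208 CPM in bin 10.

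The 2 clock genes had different shapes along the same cells in most embryos. her7 was highest in bin 1 or 2 in 7 of the 10 embryos, whereas her1 was highest in bins 6 to 8 in 9 of 10. In wildtype replicates 1 to 4, her7 was highest in bins 8, 6, 2 and 2 and her1 in bins 9, 6, 8 and 7. Some peaks were shallow, at 1.19 times the median bin for her7 in dact1/2 replicate 2 and 1.27 times for her1 in wildtype replicate 3. In wildtype her7 had 248 CPM in bin 1 and 173 CPM in bin 7, and her1 had 55.0 CPM in bin 1 and 115 CPM in bin 7. ripply1 was highest in bin 10 in all 10 embryos, ripply2 and mespba in 8 each, and dlc in 7.

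**Figure D2:**
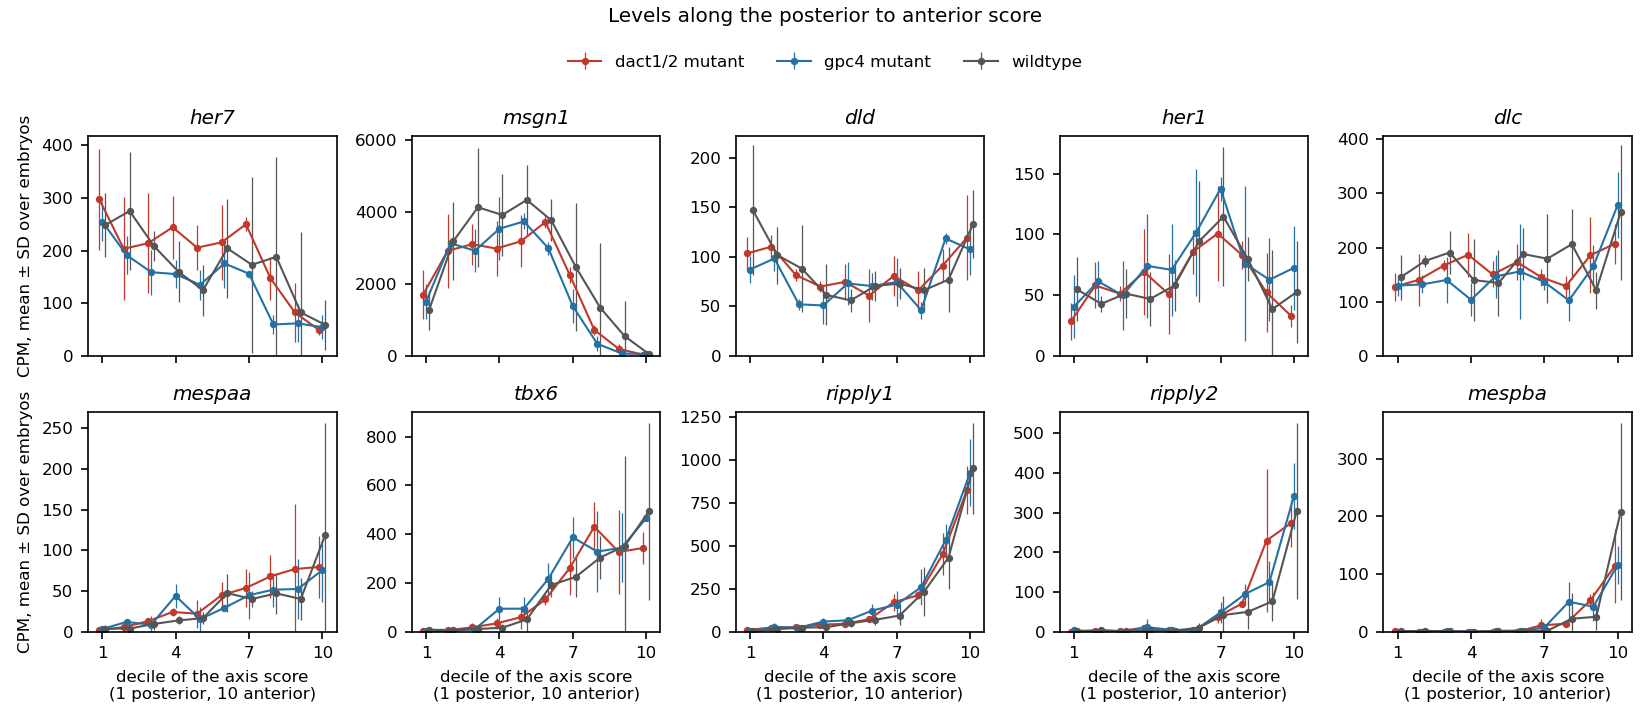
Level of each gene (CPM, mean ± SD over embryos) in 10 bins of the axis score, with bin 1 the most posterior, for 3 dact1/2 mutants, 3 gpc4 mutants and 4 wildtype embryos. The profiles of msgn1 rise and fall again while those of ripply1, ripply2 and mespba climb to bin 10, and the wide wildtype bars in bins 7 to 10 include replicate 1.

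The centres asked whether the mutants, whose axis is short, place these genes elsewhere among the ranked cells of an embryo. Bins were equal parts of each embryo's own cells. A centre therefore moves with the mix of cells and cannot show a shift shared by all cells. Mean centres were her7 4.67 ± 0.46 and msgn1 4.38 ± 0.20 in dact1/2 mutants and her7 4.39 ± 0.17 and msgn1 4.11 ± 0.093 in gpc4 mutants, beside the wildtype values above. The lowest p in dact1/2 mutants was for ripply1, with a centre of 8.61 ± 0.034 in the mutants and 8.87 ± 0.31 in wildtype (exact permutation p = 0.143). In gpc4 mutants it was for mespba, at 9.15 ± 0.34 in the mutants and 9.52 ± 0.39 in wildtype (exact permutation p = 0.200). None of 20 two-sided exact permutation tests over embryos was under 0.05, where 3 against 4 embryos allow an unadjusted p of 0.0286 at best. Each adjusted p was 0.952 or above. A single gene at that lowest p would still stay above 0.1 after adjustment over 20 tests, so a shift of few genes could not have been called. Wildtype replicate 1 had the most anterior centre of all 10 embryos for her7 (5.62), msgn1 (5.62), her1 (6.77) and tbx6 (8.93). Somite-like cells were 11.1% of the ranked cells in that embryo and 23.0% to 32.6% in the others. The part of this mix in the centres was not tested. The other 3 wildtype embryos had mean centres of 3.97 for her7 and 4.16 for msgn1, and 3 against 3 embryos allow no permutation p under 0.1.

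Which genes were found in the same cell was read after thinning to 1500 UMIs, over the 3767 cells. mespba was found in 67 of them. Of the mespba cells, 61.2% also had ripply2, 73.8% ripply1, 70.7% tbx6 and 64.1% dlc (means over 10 embryos), against 3.18%, 14.9%, 16.4% and 19.0% of the cells without mespba. msgn1 went the other way, in 4.67% of mespba cells and 54.5% of the rest, and was lower among mespba cells in all 10 embryos. The ripply2 share was higher among mespba cells in 10 of 10 embryos. her1 was found in 346 cells, of which 37.4% also had her7, against 19.0% of the cells without her1, again in all 10 embryos.

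Since genes high at the same position will share cells, joint detection was also taken within bins of the axis score as a phi coefficient. This is a correlation of presence and absence, averaged over bins and embryos. Only bins of an embryo in which each gene of a pair was found in some but not all cells entered. Pairs with a rare gene thus rest on few bins. These points share libraries and depth, and no test was made. The pair mespba and ripply2 had the highest value of the 45 pairs, 0.41, and mespaa with mespba followed at 0.31. tbx6 with ripply2 had 0.27, dlc with mespba 0.26 and her1 with her7 0.16. her1 with her7 had 0.31 without thinning, so that value moves with depth. The lowest value was that of msgn1 with mespba, at -0.06. The order depends on the thinning: without it mespba with ripply2 had 0.31, below her7 with msgn1 at 0.35 and her7 with dlc at 0.33, and msgn1 with mespba had 0.03. Thinned values for mespba rest on its 67 cells. Between embryos they ran from 0.16 to 1.0 with ripply2 and from 0.07 to 1.0 with mespaa.

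**Figure D3:**
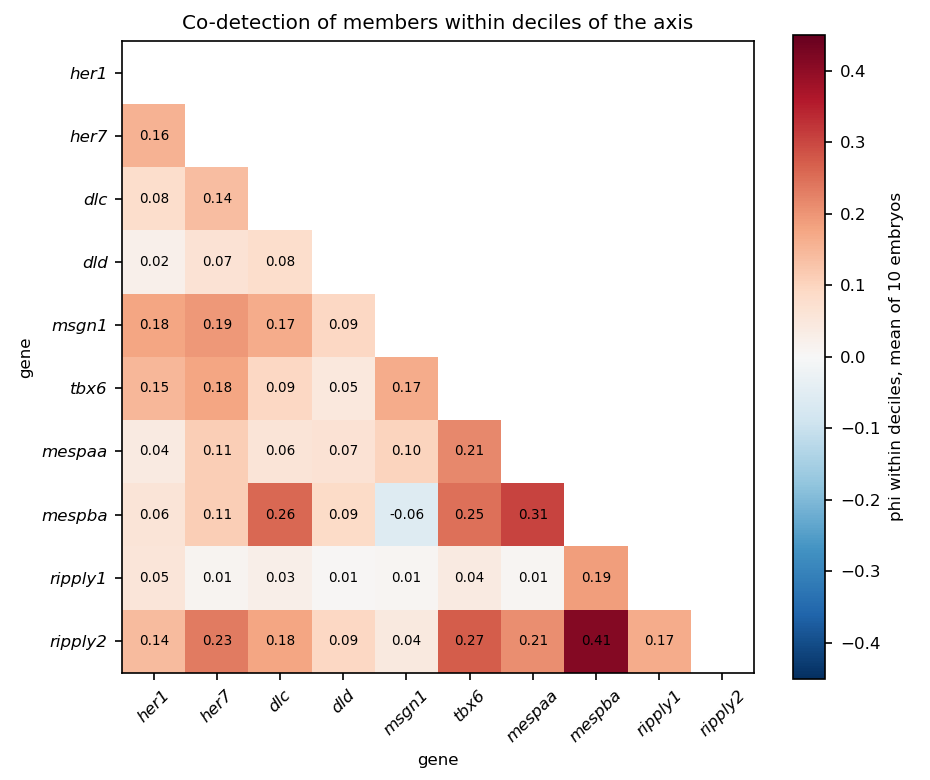
Phi coefficient of joint detection for each pair of the 10 genes, within bins of the axis score, after thinning each cell to 1500 UMIs. Values are averaged over the bins in which each gene was found in some but not all cells, and then over embryos. The highest values, mespba with ripply2 at 0.41 and mespaa with mespba at 0.31, lie among the boundary genes. Both rest on few mespba cells and ran up to 1.0 in an embryo.

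The first comparison of genotypes was made in presomitic mesoderm-like cells, where the clock runs. UMIs were summed per embryo, and in such sums fewer expressing cells and less RNA per cell cannot be told apart. No gene of the 10 passed the test in either mutant (edgeR quasi-likelihood test, called where the Benjamini-Hochberg adjusted p was under 0.1 and the log2 fold change was beyond 0.58 in either direction). In dact1/2 mutants 8 of the 10 had enough counts to be tested and 0 were called, against 0.635% of all genes tested. At an unadjusted p under 0.05 there were 2, where 400 of all 4566 genes tested had such a p, and DESeq2 called 0. In gpc4 mutants 9 were tested and 0 were called, against 0.408% of all genes. At an unadjusted p under 0.05 there were 2, where 461 of all 4415 genes tested had such a p, and DESeq2 called 1, tbx6. With all 4 wildtype embryos 0 were called in either mutant, against 0.0811% of all genes in dact1/2 mutants and 0.0864% in gpc4 mutants, and 0 in dact1/2 and 2 in gpc4 mutants had an unadjusted p under 0.05. Of all genes tested in these fits, 307 of 4935 in dact1/2 and 321 of 4630 in gpc4 mutants had such a p.

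msgn1 was lower in every mutant than in every wildtype embryo, as were 5.29% of all genes tested in dact1/2 and 6.26% in gpc4 mutants. Its levels were 4199.6, 3845 and 4148 CPM in dact1/2 mutants, 3983, 4189 and 3424 CPM in gpc4 mutants and 4430.1, 5155, 5631 and 5926 CPM in wildtype replicates 1 to 4. The log2 fold change against replicates 2, 3 and 4 was -0.50 ± 0.084 (SE) in gpc4 mutants, with an edgeR adjusted p of 0.0153 (Benjamini-Hochberg) that stands beside a change smaller than the fold threshold. In dact1/2 mutants it was -0.39 ± 0.11 with an edgeR adjusted p of 0.127. With all 4 wildtype embryos the gpc4 value was -0.38 ± 0.16 and the edgeR adjusted p 0.706. The share of presomitic mesoderm-like cells with an msgn1 UMI was 95.8% in dact1/2 mutants, 91.0% in gpc4 mutants and 96.8% in wildtype after thinning, and 99.2% in dact1/2 mutants, 98.2% in gpc4 mutants and 99.5% in wildtype without thinning, at median depths of 4562.5, 4940.5 and 8181 UMIs. In epidermis-like cells the thinned share was 7.32% in dact1/2 mutants, 14.7% in gpc4 mutants and 5.78% in wildtype. Leaving out wildtype replicate 3 or 4 moved the gpc4 edgeR adjusted p to 0.135 or 0.146.

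Levels of tbx6 did not overlap between the 2 mutants, but the share of all genes of which this holds was not counted. The direct comparison of the mutants, given further below, was called in the main fit and lost in most fits that left out 1 embryo. tbx6 stood at 174, 194 and 176 CPM in presomitic mesoderm-like cells of dact1/2 mutants, at 313, 301 and 248 CPM in those of gpc4 mutants and at 199, 159, 216 and 205 CPM in wildtype. Every gpc4 mutant was above every other embryo, where 2.18% of all genes tested were above wildtype in every gpc4 mutant, while dact1/2 mutants lay among the wildtype embryos. The gpc4 change against wildtype was 0.61 ± 0.15 on the log2 scale with an edgeR adjusted p of 0.126 (Benjamini-Hochberg), and 0.65 ± 0.15 with an edgeR adjusted p of 0.279 against all 4 wildtype embryos. tbx6 was thus not called in the main edgeR fit. Nor was it called where the 10 genes were kept in the clustering or the clusters were cut finer, where the lowest estimate was 0.18. Without gpc4 replicate 3 it was called at 0.71 (edgeR adjusted p = 0.0735).

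Among the clock genes of presomitic mesoderm-like cells, her7 stood at 383, 241 and 182 CPM in dact1/2 mutants, 169.7, 235 and 227 CPM in gpc4 mutants and 347, 172, 199 and 194 CPM in wildtype. The highest dact1/2 mutant and wildtype replicate 1 stood apart from the rest, and the groups overlapped. The log2 fold change was 0.59 ± 0.20 in dact1/2 mutants (edgeR adjusted p = 0.290, Benjamini-Hochberg) and 0.19 ± 0.17 in gpc4 mutants. Without dact1/2 replicate 3, the lowest of its group, her7 was called at 0.79 (edgeR adjusted p = 0.0509), and without replicate 1 the estimate was 0.22. her1 ran between 70.26 and 106 CPM in dact1/2 mutants, 94.6 and 169.6 CPM in gpc4 mutants and 71.0 and 140.3 CPM in wildtype. dlc ran between 144 and 203 CPM in dact1/2 mutants, 117 and 184 CPM in gpc4 mutants and 159 and 236 CPM in wildtype.

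The boundary genes overlapped between the genotypes in these cells. mespaa stood at 50.4 to 77.8 CPM in dact1/2 mutants, 42.8 to 73.4 CPM in gpc4 mutants and 35.6 to 60.2 CPM in wildtype, and ripply1 at 57.0 to 88.7 CPM in dact1/2 mutants, 63.0 to 122 CPM in gpc4 mutants and 56.8 to 114 CPM in wildtype. mespba had no UMI in the presomitic mesoderm-like cells of any dact1/2 mutant, which allows up to 3.78 to 5.70 CPM. It also had no UMI in gpc4 replicate 3 and wildtype replicate 4, which allows up to 6.75 CPM and 6.68 CPM, and stood at 3.06 and 14.8 CPM in the other gpc4 mutants and at 0.903, 4.30 and 2.84 CPM in the other wildtype embryos, so that it was too low to test. ripply2 varied most within wildtype, where replicate 2 had 62.3 CPM and the other 3 embryos 4.45 to 8.52 CPM.

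**Figure D4:**
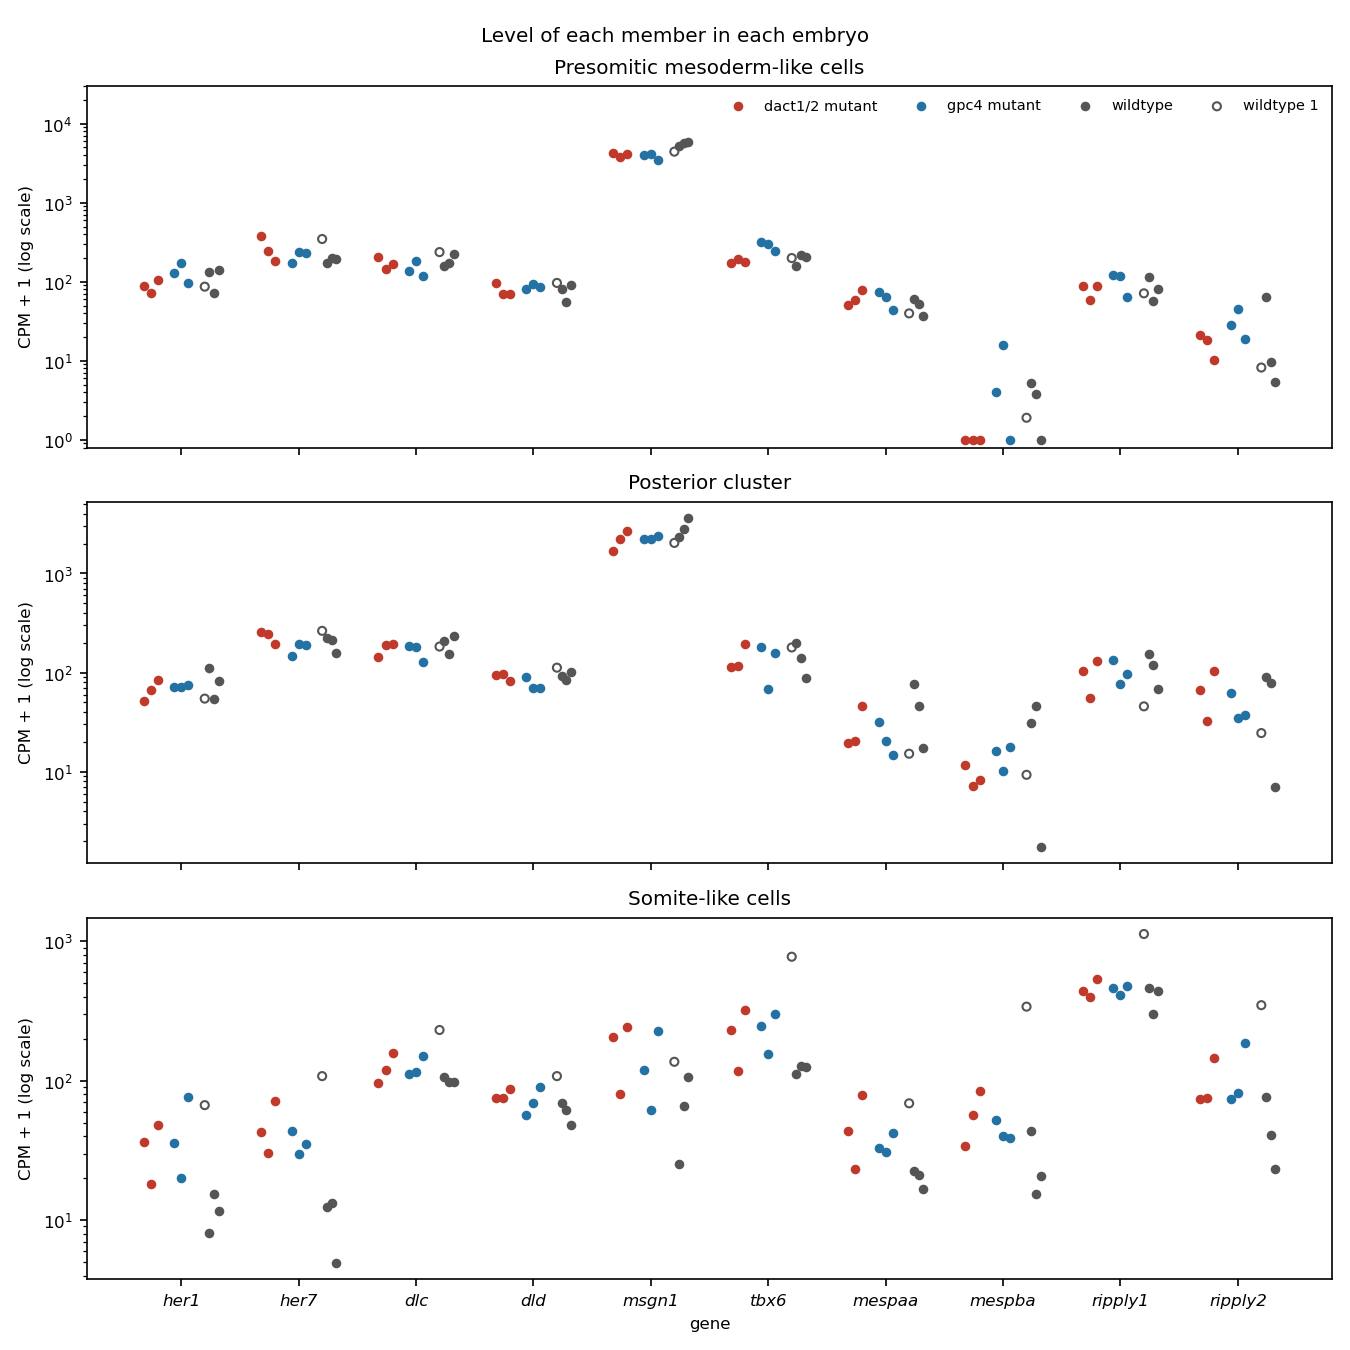
Level of the 10 genes in presomitic mesoderm-like cells, the posterior cluster and somite-like cells (top to bottom), as CPM + 1 on a log scale, with 1 point per embryo and wildtype replicate 1 as an open circle. Every mutant lies below every wildtype embryo for msgn1 in the top panel, and for all 10 genes of the bottom panel the open circle is the highest wildtype point.

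In the posterior cluster, which was compared after its levels had been seen, mutants and wildtype overlapped for each of the 10 genes. Of all genes tested there against all 4 wildtype embryos, 2.79% lay above and 7.34% below wildtype in every dact1/2 mutant. In every gpc4 mutant 2.68% lay above and 6.07% below. There 0 of 10 genes were called in dact1/2 mutants where 1.54% of all genes tested were called, with 3 at an unadjusted p under 0.05 and 0 called by DESeq2, and 0 of 10 in gpc4 mutants where 1.69% of all genes were called, with 2 at an unadjusted p under 0.05 and 0 called by DESeq2. Of all genes tested, 938 of 7326 in dact1/2 and 827 of 6912 in gpc4 mutants had an unadjusted p under 0.05. Against all 4 wildtype embryos 0 were called as well, where 0.0661% of all genes were called in dact1/2 and 0.170% in gpc4 mutants, and 0 of the 10 had an unadjusted p under 0.05 in either.

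msgn1 in the posterior cluster stood at 1683, 2213 and 2693 CPM in dact1/2 mutants, 2200.0, 2224 and 2378 CPM in gpc4 mutants and 2032, 2356, 2810.3 and 3607 CPM in wildtype. The groups overlapped here, unlike in presomitic mesoderm-like cells, and the log2 fold change was -0.35 ± 0.16 in dact1/2 mutants and -0.34 ± 0.12 in gpc4 mutants (edgeR adjusted p = 0.373 and 0.212, Benjamini-Hochberg). mespaa had the farthest estimate from 0 in gpc4 mutants, -1.05 ± 0.42 (edgeR adjusted p = 0.3001), with 30.7, 19.3 and 13.9 CPM in gpc4 mutants and 14.2, 76.1, 44.7 and 16.4 CPM in wildtype. mespba had the farthest in dact1/2 mutants, -1.49 ± 0.65 (edgeR adjusted p = 0.348), with 10.64, 6.25 and 7.29 CPM in dact1/2 mutants and 8.30, 30.1, 44.7 and 0.745 CPM in wildtype. Among the wildtype embryos both mesp genes were high in replicates 2 and 3, and mespaa stood at 18.6, 19.4 and 44.6 CPM in dact1/2 mutants. Without wildtype replicate 4 edgeR called mespba in dact1/2 mutants (-2.10, adjusted p = 0.00718) and both in gpc4 mutants (mespaa -1.46, adjusted p = 0.0401, and mespba -1.38, adjusted p = 0.0546).

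Somite-like cells, also compared after their levels had been seen, gave the most calls. The question there was whether clock transcripts are still found in cells that have left the presomitic mesoderm. her7 stood at 41.6, 29.5 and 70.25 CPM in dact1/2 mutants (38, 24 and 42 UMIs), 42.4, 28.7 and 34.1 CPM in gpc4 mutants (32, 24 and 19 UMIs) and 107, 11.4, 12.2 and 3.95 CPM in wildtype replicates 1 to 4 (52, 8, 11 and 3 UMIs). Every mutant was above wildtype replicates 2, 3 and 4 and below replicate 1.

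Against wildtype replicates 2, 3 and 4, her7 rose by 2.31 ± 0.40 on the log2 scale in dact1/2 mutants (edgeR adjusted p = 0.00747, Benjamini-Hochberg), as 1 of 10 genes called where 0.399% of all genes tested were called. In gpc4 mutants her7 rose by 1.90 ± 0.36 (edgeR adjusted p = 0.0160), as 1 of 3 genes called of 10 where 1.55% of all genes were called. With wildtype replicate 1 in the fit her7 was at 0.77 ± 0.71 in dact1/2 mutants (edgeR adjusted p = 0.948) and 0.35 ± 0.73 in gpc4 mutants (edgeR adjusted p = 0.976), and 0 of the 10 genes were called in either. The background with all 4 wildtype embryos was 0.0164% in dact1/2 and 0.133% in gpc4 mutants, and 1 gene of the 10 in dact1/2 and 0 in gpc4 mutants had an unadjusted p under 0.05. Of all genes tested in these fits, 323 of 6106 in dact1/2 and 337 of 6037 in gpc4 mutants had such a p.

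her1, the partner of her7 in the clock, stood at 35.05, 17.2 and 46.8 CPM in somite-like cells of dact1/2 mutants, 34.4, 19.1 and 75.5 CPM in gpc4 mutants and 65.8, 7.14, 14.4 and 10.5 CPM in wildtype. In gpc4 mutants it rose by 1.87 ± 0.45 (edgeR adjusted p = 0.0583, Benjamini-Hochberg) and in dact1/2 mutants the estimate was 1.57 ± 0.39 with an adjusted p of 0.1199. tbx6 was the other gene called in gpc4 mutants, at 0.94 ± 0.19 (edgeR adjusted p = 0.0230), with 231, 117 and 321 CPM in dact1/2 mutants, 245, 155 and 302 CPM in gpc4 mutants and 775, 110.0, 127 and 124 CPM in wildtype. With all 4 wildtype embryos its gpc4 estimate turned to -0.13 ± 0.56 (edgeR adjusted p = 0.992) and that of her1 was 0.99 ± 0.62 (edgeR adjusted p = 0.917).

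The her7 call in dact1/2 mutants held without any 1 of the 6 embryos (1.93 to 2.58), and in gpc4 mutants it was lost without gpc4 replicate 1 (1.74, edgeR adjusted p = 0.102). The tbx6 call was lost without gpc4 replicate 1 (0.91, edgeR adjusted p = 0.106) or wildtype replicate 2 (0.89, adjusted p = 0.111), and that of her1 without any 1 embryo other than gpc4 replicate 2 (1.26 to 2.16 in those 5 fits, adjusted p between 0.115 and 0.226). In dact1/2 mutants 6 genes were called without dact1/2 replicate 2, 3 without wildtype replicate 2 and 2 without wildtype replicate 4. Where the 10 genes were kept in the clustering, her7 was at 1.59 in dact1/2 (edgeR adjusted p = 0.118) and 1.08 in gpc4 mutants (adjusted p = 0.333) and was called in neither.

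The rest of the 10 genes also had positive estimates in somite-like cells of both mutants, without being called. Estimates in dact1/2 mutants were 1.43 ± 0.35 for msgn1, 1.30 ± 0.37 for mespaa, 1.17 ± 0.36 for mespba and 1.096 ± 0.32 for ripply2 (edgeR adjusted p between 0.116 and 0.221, Benjamini-Hochberg). The msgn1 levels behind its estimate overlap the background. They were 204, 78.7 and 241 CPM in somite-like cells of dact1/2 mutants, beside 144, 98.4 and 174 CPM in their epidermis-like cells. In gpc4 mutants they were 118, 60.9 and 226 CPM, beside 288, 139 and 174 CPM. The part of background in these levels was not tested. The median over the 10 genes was 1.14 in dact1/2 mutants and 0.88 in gpc4 mutants, against 0.00 and -0.01 over all genes tested. Against all 4 wildtype embryos these medians were 0.12 in dact1/2 and 0.08 in gpc4 mutants. Groups did not overlap, once wildtype replicate 1 was set aside, for her1, her7, dld and mespaa in dact1/2 mutants and for her1, her7, dlc, tbx6 and mespaa in gpc4 mutants, all with the mutants higher, and for none of the 10 with all 4. Of all genes tested there, 5.7% lay above these 3 wildtype embryos in every dact1/2 mutant and 6.59% in every gpc4 mutant.

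ripply1, the repressor of Tbx6 activity that is highest in these cells, was not called. It stood at 440.3, 401 and 540.2 CPM in somite-like cells of dact1/2 mutants, 458, 409.7 and 474 CPM in gpc4 mutants and 1129, 458, 302 and 437 CPM in wildtype. Its estimates were 0.23 ± 0.16 in dact1/2 mutants and 0.17 ± 0.14 in gpc4 mutants.

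The share of somite-like cells with a her7 UMI, thinned to 1500 UMIs, was 3.94%, 3.85% and 8.33% in dact1/2 mutants, 5.26%, 1.67% and 5.21% in gpc4 mutants and 20.5%, 1.45%, 1.29% and 0% in wildtype, where the last is 0 of 50 cells and allows a share of up to 6%, counting error only. Unthinned, it was 7.69% to 18.8% in dact1/2 mutants, 9.17% to 19.7% in gpc4 mutants and 2.90% to 5.81% in wildtype replicates 2, 3 and 4, with 38.5% in replicate 1. Epidermis-like cells had a thinned share of 1.34% in dact1/2 mutants, 1.17% in gpc4 mutants and 0.485% in wildtype. Median depths of somite-like cells were 5218, 5597.5 and 7789 UMIs in dact1/2 mutants, gpc4 mutants and wildtype, and those of epidermis-like cells 5581, 5295 and 7721 UMIs.

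Other markers moved with these genes in somite-like cells. Of the presomitic mesoderm markers, 9 of 10 were found, and they summed to 1013 to 1162 CPM in dact1/2 mutants, 1052 to 1238 CPM in gpc4 mutants, 900.4 to 995 CPM in wildtype replicates 2, 3 and 4 and 2014 CPM in replicate 1. All 12 tail bud markers summed to 282 to 333 CPM in dact1/2 mutants, 285 to 318 CPM in gpc4 mutants, 111 to 233 CPM in those 3 wildtype embryos and 603 CPM in replicate 1. No presomitic marker was at 0 in any embryo, and the stress genes summed to 2734 to 3357 CPM in dact1/2 mutants, 3329.7 to 3529.8 CPM in gpc4 mutants, 2366 to 2968 CPM in those 3 wildtype embryos and 5418 CPM in replicate 1. The part of presomitic and tail bud cells, of background RNA or of stress in the her7 and her1 values was not tested.

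Taking presomitic mesoderm-like, somite-like and adaxial-like cells together as paraxial mesoderm, 1 of 10 genes was called in each mutant. In dact1/2 mutants it was her7, with a rise of 0.99 ± 0.20 on the log2 scale (edgeR adjusted p = 0.0348, Benjamini-Hochberg), where 1.24% of all genes were called. Its levels were 158, 92.8 and 113 CPM in dact1/2 mutants, 94.0, 87.1 and 107 CPM in gpc4 mutants and 254, 67.0, 56.4 and 69.8 CPM in wildtype. In gpc4 mutants it was tbx6, with a rise of 0.74 ± 0.13 (edgeR adjusted p = 0.0285), where 1.26% of all genes were called. Levels of tbx6 were 181, 134 and 223 CPM in dact1/2 mutants, 286, 224 and 237 CPM in gpc4 mutants and 454, 165, 135 and 158 CPM in wildtype.

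Wildtype replicate 1 lay above all mutants for both genes. The other wildtype embryos lay below every dact1/2 mutant for her7 and below every gpc4 mutant for tbx6, her7 and her1. In gpc4 mutants her7 and her1 were not called. Of all genes tested, 5.47% lay above these 3 wildtype embryos in every dact1/2 mutant and 6.47% in every gpc4 mutant. With all 4 wildtype embryos 0 of the 10 genes were called in either mutant, against 0.0123% of all genes in dact1/2 and 0.0989% in gpc4 mutants, and 0 in dact1/2 and 1 in gpc4 mutants had an unadjusted p under 0.05. Of all genes tested in these fits, 661 of 8100 in dact1/2 and 640 of 8092 in gpc4 mutants had such a p. The estimate for her7 was then 0.24 ± 0.44 (edgeR adjusted p = 0.935) and that for tbx6 0.22 ± 0.34 (edgeR adjusted p = 0.935). The mix of cells moved too: presomitic mesoderm-like cells were 36.8% to 51.2% of paraxial cells in dact1/2 mutants, 36.6% to 42.4% in gpc4 mutants, 30.2% to 37.5% in wildtype replicates 2, 3 and 4 and 62.0% in replicate 1. The 10 adaxial markers summed to 3149 to 5789 CPM in dact1/2 mutants, 3184 to 6469 CPM in gpc4 mutants and 1067 to 3095 CPM in wildtype. The part of this mix in the calls was not tested.

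The paraxial call of her7 was lost without dact1/2 replicate 1 (0.75, edgeR adjusted p = 0.157), wildtype replicate 2 (1.04, adjusted p = 0.1004) or wildtype replicate 3 (0.88, adjusted p = 0.103). That of tbx6 was lost without wildtype replicate 3 (0.64, edgeR adjusted p = 0.104), and without wildtype replicate 2 ripply2 was called beside it (1.73, adjusted p = 0.0695). Both were lost where the 10 genes were kept in the clustering (her7 0.58, tbx6 0.46) or the clusters were cut finer (her7 0.66, tbx6 0.43).

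**Figure D5:**
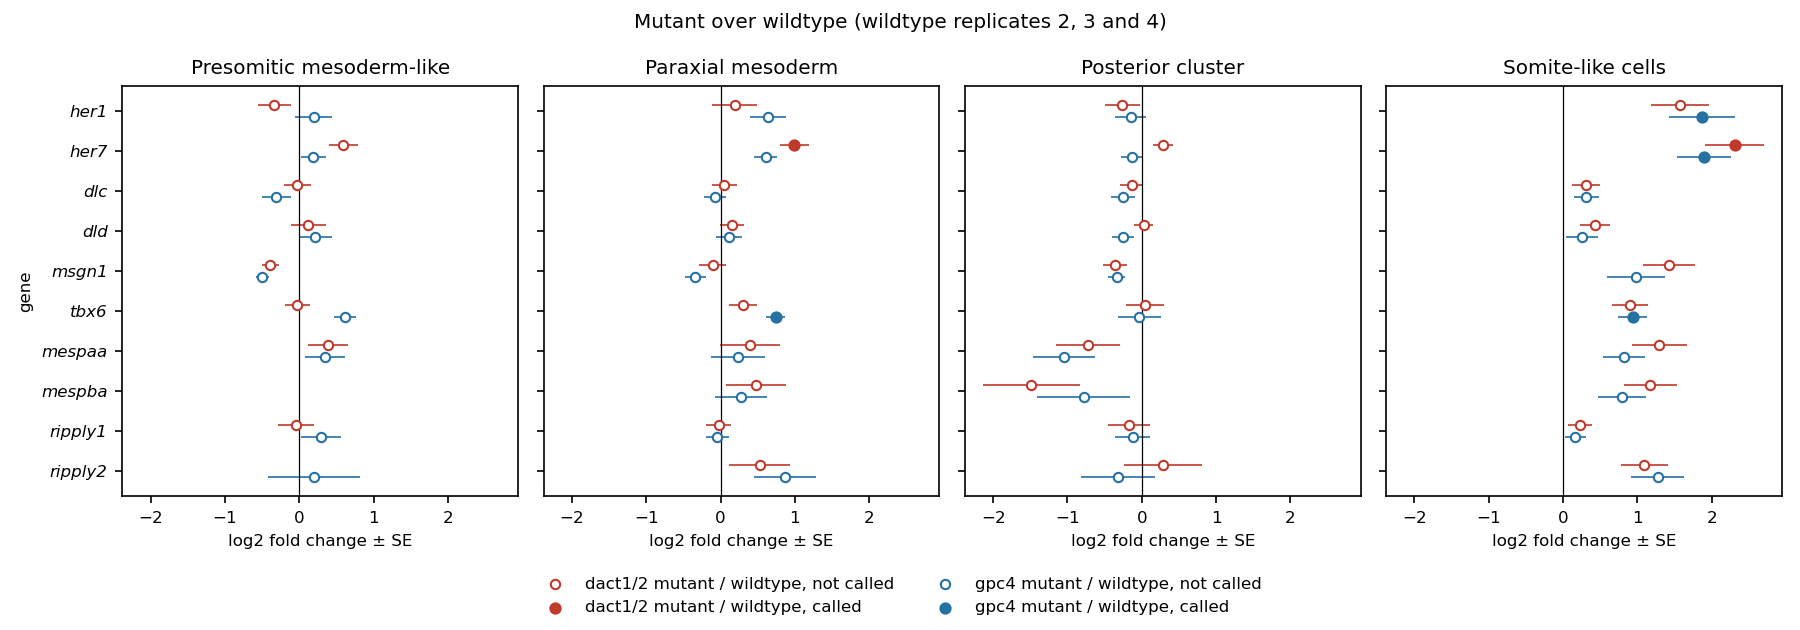
Log2 fold change ± SE of the 10 genes in each mutant over wildtype replicates 2, 3 and 4, in presomitic mesoderm-like cells, paraxial mesoderm, the posterior cluster and somite-like cells, with called genes filled. Filled points are her7 in dact1/2 mutants and tbx6 in gpc4 mutants in paraxial mesoderm, her7 in both mutants in somite-like cells, and her1 and tbx6 in gpc4 mutants there, and none is called with all 4 wildtype embryos.

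The mutants were also set against each other, a comparison that uses no wildtype embryo. In presomitic mesoderm-like cells 1 of 9 genes tested was called, where 0.546% of all genes were called. It was tbx6, at -0.65 ± 0.15 on the log2 scale in dact1/2 relative to gpc4 mutants (edgeR adjusted p = 0.0787, Benjamini-Hochberg), from the per-embryo levels given above. The groups do not overlap in these levels, but the share of all genes that lie apart between the mutants was not counted. DESeq2 gave an adjusted p of 0.115 for tbx6, and where the 10 genes were kept in the clustering the estimate shrank to -0.21. Of the 6 fits that left out 1 embryo, it was called only without gpc4 replicate 3 (-0.72, edgeR adjusted p = 0.0369), and the other 5 gave -0.67 to -0.60 with an adjusted p between 0.151 and 0.340. her1 was at -0.54 ± 0.22 and her7 at 0.39 ± 0.22 in the same comparison, with edgeR adjusted p-values of 0.464 and 0.703. In the posterior cluster 0 of 10 genes were called, where 1.25% of all genes were called, with 1 at an unadjusted p under 0.05 and 0 called by DESeq2. That 1 was her7, at 0.43 ± 0.14 with an edgeR adjusted p of 0.229, and its levels were 257, 244 and 194 CPM in dact1/2 mutants and 146, 193 and 187 CPM in gpc4 mutants.

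Other genes of the same pathways were taken as 4 lists. The hairy/E(spl) relatives, of which 14 were found, act as repressors downstream of Notch or as clock partners, and 0 of 6 tested were called by edgeR or DESeq2 in presomitic mesoderm-like cells of either mutant, with 1 at an unadjusted p under 0.05 in each. Their median log2 fold change was 0.26 in dact1/2 and -0.39 in gpc4 mutants, against 0.01 and 0.00 over all genes. Of all genes tested in these cells, 0.635% were called in dact1/2 and 0.408% in gpc4 mutants. An unadjusted p under 0.05 was found for 400 of 4566 genes in dact1/2 and 461 of 4415 in gpc4 mutants. In dact1/2 relative to gpc4 mutants, 7 of 8 tested had positive estimates in these cells with a median of 0.56. By edgeR or DESeq2 0 were called, where edgeR called 0.546% of all genes, with 4 at an unadjusted p under 0.05. The signs and unadjusted p-values were not set against all genes here, so no trait of the list is read from them. Of 25 Notch pathway genes found, 0 of 13 tested were called in these cells in either mutant by edgeR or DESeq2, with 0 at an unadjusted p under 0.05 and medians of 0.13 in dact1/2 and 0.02 in gpc4 mutants.

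Among T-box, Fgf and Wnt genes of the posterior mesoderm, 1 of 20 tested fell in presomitic mesoderm-like cells of dact1/2 mutants and 0 of 20 were called in gpc4 mutants, with 5 at an unadjusted p under 0.05 and 0 called by DESeq2. Of all genes tested in these cells, 0.635% were called in dact1/2 and 0.408% in gpc4 mutants, in either direction. In gpc4 mutants 461 of all 4415 genes had an unadjusted p under 0.05. The gene that fell was pcdh8, the paraxial protocadherin, with 289.6, 347 and 241 CPM in dact1/2 mutants and 469, 413, 539.8 and 439 CPM in wildtype (-0.60 ± 0.15, edgeR adjusted p = 0.0656). It fell in the posterior cluster of dact1/2 mutants too, with 149.6, 128 and 211 CPM in dact1/2 mutants and 213, 332, 254 and 224 CPM in wildtype (-0.68 ± 0.18, edgeR adjusted p = 0.0996), while DESeq2 called 0 genes of the list in either class of dact1/2 mutants. In the posterior cluster of gpc4 mutants 1 of 28 fell, where 1.69% of all genes tested were called in either direction. It was cdx1a, a caudal factor of the tail bud, with 248, 232 and 218 CPM in gpc4 mutants and 641, 360.0, 364 and 384 CPM in wildtype (-0.64 ± 0.088, edgeR adjusted p = 0.00169). With all 4 wildtype embryos neither gene was called. The edgeR adjusted p was then 0.207 for cdx1a, and for pcdh8 0.519 in presomitic mesoderm-like cells and 0.618 in the posterior cluster.

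The list of somite maturation and boundary genes had 1 call in presomitic mesoderm-like cells of gpc4 mutants, of 23 tested, where 0.408% of all genes were called. fn1a, a fibronectin of the matrix around somites, stood at 223, 191 and 171 CPM in gpc4 mutants and 413, 301, 321 and 298 CPM in wildtype (-0.61 ± 0.14, edgeR adjusted p = 0.0961). In the posterior cluster of dact1/2 mutants 1 of 25 fell, where 1.54% of all genes tested were called in either direction. It was epha4a, an Eph receptor active at somite boundaries, with 51.6, 46.5 and 55.1 CPM in dact1/2 mutants and 26.0, 77.7, 85.7 and 98.4 CPM in wildtype (-0.72 ± 0.15, edgeR adjusted p = 0.0387). With all 4 wildtype embryos neither was called, with fn1a at -0.69 (edgeR adjusted p = 0.258) and epha4a at -0.39 (edgeR adjusted p = 0.866).

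In somite-like cells the calls of the lists were mostly upward and fell among posterior genes. Of 23 posterior mesoderm genes tested, 2 rose and 0 fell in dact1/2 mutants and 3 rose and 1 fell in gpc4 mutants, with median log2 fold changes of 0.31 in dact1/2 and 0.13 in gpc4 mutants, where 0.399% and 1.55% of all genes tested were called in either direction with medians of 0.00 and -0.01. cdx4, another caudal factor of the tail bud, stood at 175, 157 and 179 CPM in dact1/2 mutants, 223, 159 and 144 CPM in gpc4 mutants and 354, 44.3, 94.1 and 88.2 CPM in wildtype. It rose by 1.18 ± 0.20 in dact1/2 and 1.20 ± 0.22 in gpc4 mutants (edgeR adjusted p = 0.00747 and 0.0103, Benjamini-Hochberg). The other calls were tbx16 in dact1/2 mutants (1.31 ± 0.31, edgeR adjusted p = 0.0998) and pcdh8 (0.88 ± 0.15, adjusted p = 0.00613) and cyp26a1, which degrades retinoic acid (1.34 ± 0.31, adjusted p = 0.0548), in gpc4 mutants, where snai1b fell by 0.84 on the log2 scale (adjusted p = 0.0835). mespab, the paralog of mespaa, rose by 1.71 ± 0.40 in dact1/2 mutants as 1 of 27 somite genes (edgeR adjusted p = 0.0780), and the glycosyltransferase lfng fell by 0.64 in gpc4 mutants as 1 of 16 Notch genes (adjusted p = 0.0769). Of the hairy/E(spl) relatives 0 of 10 tested were called in somite-like cells of either mutant by edgeR or DESeq2, with 3 at an unadjusted p under 0.05 in dact1/2 and 2 in gpc4 mutants. Over all genes, 520 of 6021 in dact1/2 and 505 of 5860 in gpc4 mutants had such a p. Set against all 4 wildtype embryos, none of these list genes was called in somite-like cells. The estimate for pcdh8 in gpc4 mutants then turned to -0.13, and those for cdx4 were 0.40 in dact1/2 and 0.42 in gpc4 mutants.

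The genes most like each of the 10 were ranked by Pearson correlation of log2(CPM + 1) over 25 wildtype points, which were the 10 bins of the axis score and 15 other clusters. Of 10095 genes with enough counts, the 10 were not ranked but set beside each other. The points share libraries, and the values are descriptions. her1 and her7 were closer to each other (0.96) than either was to any gene ranked, and her7 with msgn1 had 0.92. Of the genes ranked, closest to her1 were znfl1h (0.94), pcdh8 (0.92) and myf5 (0.92), and closest to her7 were cdx1a (0.92), tbx16l (0.92) and hes6 (0.91). msgn1 had tbx16l (0.95), hes6 (0.90) and pcmtd1 (0.90). For the ligands they were fn1b (0.88), znfl1l (0.86) and tlcd5a (0.86) beside dlc, and efnb2b (0.82), notch1a (0.81) and kcnj19a (0.81) beside dld, which was closer to her7 (0.86), her1 (0.85) and dlc (0.83).

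For tbx6 the genes ranked were led by ntn5 (0.92), CT030712.1 (0.92) and smyd2b (0.91), level with mespaa of the 10 (0.92). Of the genes ranked, mespba was nearest its paralog mespbb (0.93), then mespab (0.88) and ntn5 (0.88). ripply2 was nearest mespab (0.90), si:ch1073-268j14.1 (0.89) and col4a1 (0.87). ripply1 was nearest kazald2 (0.84), aldh1a2 (0.83) and meox1 (0.81), the last 2 being genes of the axis score. mespaa was nearest trim109 (0.97), unc45b (0.96) and hsp90aa1.1 (0.95), of which unc45b and hsp90aa1.1 encode chaperones of muscle myosin. In the RefSeq gene order of GRCz12tu, her1 and her7 are direct neighbours, as are mespab and mespbb, and 1 gene lies between mespaa and mespba. Reads of such close paralogs could be split between copies, so the levels of mespaa, mespba, mespab and mespbb are uncertain to that extent.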

How the data were processed

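Whole zebrafish embryos were profiled with the 10x Chromium Single Cell 3′ kit (version 3) and sequenced on a NovaSeq instrument. The authors aligned reads with Cell Ranger (version 6.1.0, with GRCz11 named in the submitters' processing notes) and deposited UMI counts per gene and cell barcode, 1 matrix per embryo, filtered to barcodes called as cells. The depth is the number of UMIs per embryo given above, and the 0 other columns of per-sample values were left unmapped.

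A droplet was kept if it held 1500 or more UMIs, 750 or more genes and less than 5% mitochondrial UMIs, and if its log10 gene number exceeded 80% of its log10 UMI number. Genes had to be found in at least 1 of 3000 cells. Doublets were not removed and no doublet caller was run. Cells were clustered with sctransform 0.4.2 and Seurat 5.3.0 (R 4.3.3; 3000 variable genes without the 10 genes, embryo means removed, 40 components, resolution 0.3), and clusters were named from marker genes. The cluster planned as tail bud-like met both marker sets and is called the posterior cluster instead, and its comparisons and those of somite-like cells were added after the data had been seen.

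UMIs were summed per embryo and class and tested with edgeR 4.0.16 (TMM, filterByExpr, quasi-likelihood), with Benjamini-Hochberg adjustment over all genes tested and wildtype replicates 2, 3 and 4. Calls needed both an adjusted p below 0.1 and a log2 fold change beyond 0.58. Centres along the axis score used all 4 wildtype embryos and exact permutation tests. Alternatives were all 4 wildtype embryos, DESeq2 1.42.0, RLE normalization, no filter on low counts, a replicate block, clustering with the 10 genes or at resolution 0.8, and leaving out each embryo. The test procedure was tested on simulated data.

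All 10 genes were named, with genes of the 4 pathway lists that were called (at most 5 per comparison) and the 3 genes most like each of the 10. The genes and lists were chosen with earlier results of these data known.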

Additional observations from a re-analysis of the deposited data

Results flagged for a closer look

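A sample far from the other 3 wildtype embryos was found for 11 of 40 groups of 4, where chance marks about 1 in 20 independent groups. In 10 of the 11 it was wildtype replicate 1. The 40 groups use the same 4 embryos, and the whole-embryo sums hold the class sums, so they are not independent and the rates cannot be compared. Its somite-like cells had 65.8 CPM of her1 (7.14 to 14.4 CPM in the other wildtype embryos), 107 CPM of her7 (3.95 to 12.2 CPM), 230.4 CPM of dlc (96.4 to 106 CPM) and 775 CPM of tbx6 (110.0 to 127 CPM). They also had 67.9 CPM of mespaa (15.8 to 21.4 CPM), 339 CPM of mespba (14.4 to 42.8 CPM) and 348 CPM of ripply2 (22.4 to 75.7 CPM). Only 39 somite-like cells were found in that embryo, the fewest of the 10.

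In presomitic mesoderm-like cells of wildtype replicate 1, her7 stood at 347 CPM, against 172 to 199 CPM in the other 3, and over the whole embryo her7 stood at 95.4 CPM, against 28.5 to 35.6 CPM, and dld at 47.5 CPM, against 29.0 to 31.6 CPM. The 1 flag outside that embryo was ripply2 in presomitic mesoderm-like cells of wildtype replicate 2, at 62.3 CPM against 4.45 to 8.52 CPM in the others.

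tbx6 differed between the mutants themselves in presomitic mesoderm-like cells, by -0.65 on the log2 scale in dact1/2 relative to gpc4 mutants. That difference was tested directly (edgeR adjusted p = 0.0787, Benjamini-Hochberg), and across the 13 settings tried the adjusted p ran between 0.0369 and 0.725.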

How the results depend on the processing

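With all 4 wildtype embryos the number of the 10 genes called was 0 in paraxial mesoderm and somite-like cells of both mutants, and tbx6 in somite-like cells of gpc4 mutants reversed to -0.13. Without the filter on low counts, edgeR called 1 of the 10 in presomitic mesoderm-like cells of each mutant, 4 in paraxial mesoderm of gpc4 mutants, 2 and 1 in the posterior cluster of dact1/2 and gpc4 mutants, 7 and 5 in their somite-like cells, and 1 in the posterior cluster between the mutants. DESeq2 called 1 in presomitic mesoderm-like cells of gpc4 mutants and 0 between the mutants there. Clustering with the 10 genes, and clustering at resolution 0.8, each gave 0 in paraxial mesoderm of both mutants and 0 between the mutants in presomitic mesoderm-like cells, and clustering with the 10 genes gave 1 in somite-like cells of gpc4 mutants.

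Leaving out 1 embryo gave 0 to 1 in presomitic mesoderm-like cells of dact1/2 mutants, of gpc4 mutants and between them, 0 to 1 in paraxial mesoderm and the posterior cluster of dact1/2 mutants, 0 to 2 in those of gpc4 mutants, 1 to 6 in somite-like cells of dact1/2 mutants and 0 to 3 in those of gpc4 mutants. The number of centres that differed was 0 in every setting. With 3 against 3 embryos, as in each setting without a wildtype embryo, no permutation p lies under 0.1. A centre needed an adjusted p under 0.1, so the 0 was fixed in advance there and is no sign of stability. In the main fit and in those without a mutant embryo, a single gene at the lowest possible p would also stay above 0.1 after adjustment. The 0 in those settings is therefore a weak sign as well. Of 190 alternative values of single genes, 138 kept their direction and side of the threshold, 38 lost the call, 13 gained it and 1 reversed. The cause of these changes was not tested.

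Embryos share replicate numbers across groups, but the main fits did not pair embryos by number, and a block by number was an alternative only. The labels do not say whether equal numbers mark shared handling. The blocked fits with wildtype therefore cannot test the effect of a shared day. Correlations of same-numbered deviations from the group means were, between the 2 mutants, 0.0887, 0.190 and 0.183 in presomitic mesoderm-like cells and 0.100, 0.156 and 0.0198 in the posterior cluster. They were 0.277, 0.253 and 0.289 in paraxial mesoderm, where the mutants were not compared, and -0.30 to 0.14 with wildtype. As a hint from the data alone, embryos of the 2 mutants correlated best with their own number in 6 of 6 cases in presomitic mesoderm-like cells and paraxial mesoderm and 5 of 6 in the posterior cluster, and mutants with wildtype in 0 to 6 of 6. With the replicate number as a block and all 4 wildtype embryos, 0 of the 10 genes were called in paraxial mesoderm of both mutants. In somite-like cells 0 were called in gpc4 mutants and 1 in dact1/2 mutants (msgn1, whose levels there overlap those of epidermis-like cells). Without the block these fits gave 0 calls of the 10. Number 4 is held by 1 wildtype embryo alone, so with the block that embryo says nothing about genotype. The blocked and unblocked fits thus differ by that embryo as well as by the block, and both keep wildtype replicate 1. Between the mutants, the block alone gave 1 call in presomitic mesoderm-like cells (tbx6, adjusted p = 0.0426 in edgeR).

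Over all genes, counts of calls moved widely. In presomitic mesoderm-like cells they were 29 in dact1/2 and 18 in gpc4 mutants, against 4 and 4 with all 4 wildtype embryos, 13 and 10 with DESeq2, 72 and 128 without the filter, 83 and 110 clustering with the 10 genes and 105 and 79 at resolution 0.8. In somite-like cells they were 24 in dact1/2 and 91 in gpc4 mutants, against 1 and 8 with all 4 wildtype embryos, 12 and 41 with DESeq2, and 128 and 191 without the filter. In paraxial mesoderm 98 and 98 became 1 and 8 with all 4 wildtype embryos and 426 and 485 without the filter, and in the posterior cluster 113 and 117 became 5 and 12, and 275 and 268. Depth limits the lowest genes: mespba had too few counts to test in presomitic mesoderm-like cells, and her7 in somite-like cells of wildtype replicates 2, 3 and 4 rests on 8, 11 and 3 UMIs.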
